A study of Mus musculus with 2 samples.

Results

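Gsx1, Gsx2, Sp8, Sp9, Vax1, Olig1, Olig2 and Zeb2 encode transcription factors of the ventral forebrain that lie outside the Dlx, Nkx and LIM homeobox families. They were taken by symbol from a table of 43437 genes and a table of 103615 isoforms. All 8 had 1 row in the gene table, and together they had 24 isoform rows. Wild-type, untreated ICR mice, an outbred stock, gave RNA from fetuses at E12.5, with 1 library made from whole body and 1 made from telencephalon, the front part of the embryonic brain. The number of fetuses pooled, their sex and the presence of the head in the whole-body sample are not given in the sources used here. Levels are FPKM, fragments per kilobase of transcript and per 1000000 mapped fragments, which adjusts for length and depth. FPKM summed to 502131 in whole body and 447888 in telencephalon. Comparisons between libraries therefore also depend on scaling, and those between genes on the isoform lengths used. Since neither group has a second library, differences have no replicate check and were not tested, and every interval below is a 95% interval of counting error within these libraries.

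The ventral telencephalon, or subpallium, consists of the ganglionic eminences, swellings whose dividing cells produce the GABA-using neurons of the striatum, the olfactory bulb and the cortex. Homeobox factors such as Gsx2 hold the progenitors in a ventral state against the cortical programme that Pax6 directs. Olig2 acts in the same dividing cells, and Sp8, Sp9 and Zeb2 act mostly as the cells leave division and take up a neuronal type. Most of the 8 genes also have textbook sites of expression outside the telencephalon: Olig1 and Olig2 in the motor neuron domain of the spinal cord, Gsx1 and Gsx2 in dorsal spinal and hindbrain progenitors, Sp8 and Sp9 in the ectodermal ridge of the limb, Vax1 in the optic stalk, and Zeb2 in neural crest and mesenchyme.

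The libraries corresponded to about 29400000 fragments for whole body and 22800000 for telencephalon, as read from the FPKM steps of genes with a single isoform. Of 8 markers that define the telencephalon 7 were at least 2-fold higher in the telencephalon library, with Dlx2 at 212 against 5.40 FPKM, and Emx2 stood at 4.75 against 1.93. Of 19 markers of other tissues 17 were at least 2-fold lower, their summed level was 46.7 against 3899 FPKM, and Apoa2, Krt14 and Hoxa5 were listed at 0. The exceptions were the diencephalic genes Barhl2 (5.40 against 0.957 FPKM) and Tcf7l2 (24.1 against 39.8), and their part in the results was not tested. Xist stood at 55.1 against 0.0703 FPKM, and tissue and sex of the fetuses cannot be told apart in these libraries.

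All 8 genes had higher FPKM in telencephalon than in whole body, from 2.32-fold for Zeb2 to 41.7-fold for Gsx2. On the scale used for counts, the log2 ratio of FPKM + 1, 7 of the 8 were at least 2-fold higher and none was lower, where 9.39% of 14987 measured genes were higher and 21.2% lower. A measured gene had 1 FPKM or more in either library. Of the 8 genes, 6 reached that level in telencephalon only, so their passing the filter already implies a difference and the count is a description. At 4-fold the count was 5 of 8 beside 2.2% of measured genes, and at 8-fold it was 3 of 8 beside 0.654%. The median log2 ratio of the 8 genes was 2.28, and that of all measured genes -0.16. Just past the 2-fold limit was Zeb2 (1.19) and just short of it was Olig1 (0.97).

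**Figure D1:**
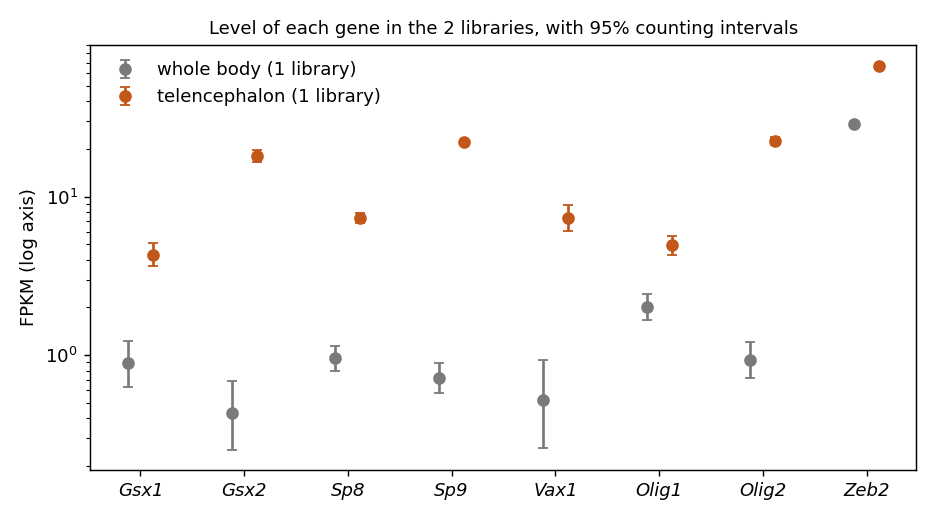
FPKM on a log axis for the 8 genes in whole body (grey) and telencephalon (orange), 1 library each, with bars for the 95% counting interval. Every orange point lies above its grey point, Zeb2 is highest in both libraries, and the gap is smallest for Zeb2 and Olig1.

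The order of the levels differed between the libraries. In telencephalon Zeb2 was highest at 66.5 FPKM, then came Olig2 (22.6), Sp9 (22.0), Gsx2 (18.0), Vax1 (7.38), Sp8 (7.36), Olig1 (4.93) and Gsx1 (4.31). Within that order the counting intervals overlapped for the neighbours Olig2 and Sp9, Vax1 and Sp8, and Olig1 and Gsx1, and lay apart for the other neighbours. In whole body Zeb2 was again highest at 28.6 FPKM, followed by Olig1 at 2.02. The 6 others stood between 0.431 and 0.958 FPKM there, and each of them overlapped the next in counting interval. Zeb2 made up 81.6% of the summed FPKM of the 8 genes in whole body and 43.5% in telencephalon. Without Zeb2 the sum was 6.47 FPKM in whole body and 86.5 in telencephalon, a 13.4-fold difference.

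**Figure D2:**
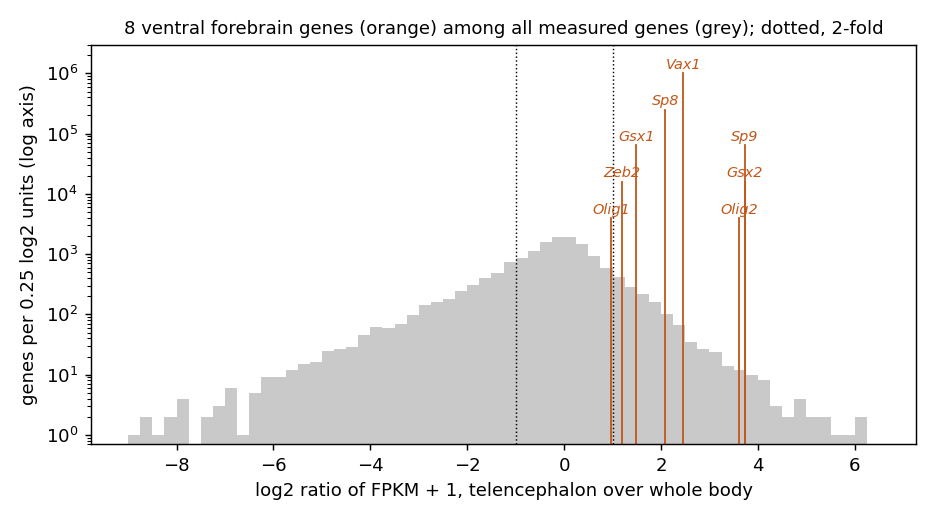
Number of measured genes (log axis) by log2 ratio of FPKM + 1, telencephalon over whole body, with the 8 genes drawn as orange lines whose height carries no value. Sp9, Gsx2 and Olig2 lie together near the right end between 3.61 and 3.74, and Olig1 lies just below the dotted 2-fold line.

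The Gsx, Sp and Olig genes form pairs of close relatives whose members differed in fold. Start regions are shown for these pairs, without that of Olig1. A relation between the start regions and the folds was not tested. RefSeq start windows on GRCm38.p6, each of 250 bases before and 50 after a transcript start, were matched for 7 of the 8 genes, all but Olig1, and numbered 12 in all. The sequences below run 5′ to 3′ and end just before the first transcript start that GENCODE or RefSeq annotates in the window, with capitals for the E-box CANNTG and the GC box GGGCGG on either strand. They are chr5:147188446-147188695 (+) for Gsx1, chr5:75075351-75075600 (+) for Gsx2, chr12:118846079-118846328 (+) for Sp8, chr2:73271676-73271924 (+) for Sp9 and chr16:91225300-91225456 (+) for Olig2.
Gsx1: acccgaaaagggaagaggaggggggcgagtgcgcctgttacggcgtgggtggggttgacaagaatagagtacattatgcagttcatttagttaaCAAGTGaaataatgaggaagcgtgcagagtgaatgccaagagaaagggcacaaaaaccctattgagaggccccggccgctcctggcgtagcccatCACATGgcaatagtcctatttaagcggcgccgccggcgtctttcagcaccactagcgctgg
Gsx2: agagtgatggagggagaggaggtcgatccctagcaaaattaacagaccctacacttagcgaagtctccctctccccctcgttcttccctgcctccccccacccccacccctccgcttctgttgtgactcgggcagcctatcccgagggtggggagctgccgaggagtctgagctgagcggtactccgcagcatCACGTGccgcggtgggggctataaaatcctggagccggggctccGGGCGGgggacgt
Sp8: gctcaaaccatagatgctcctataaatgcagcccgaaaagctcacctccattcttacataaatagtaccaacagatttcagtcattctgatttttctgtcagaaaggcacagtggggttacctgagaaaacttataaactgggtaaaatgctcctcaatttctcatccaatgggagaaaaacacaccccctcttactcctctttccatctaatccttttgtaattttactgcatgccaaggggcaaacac
Sp9: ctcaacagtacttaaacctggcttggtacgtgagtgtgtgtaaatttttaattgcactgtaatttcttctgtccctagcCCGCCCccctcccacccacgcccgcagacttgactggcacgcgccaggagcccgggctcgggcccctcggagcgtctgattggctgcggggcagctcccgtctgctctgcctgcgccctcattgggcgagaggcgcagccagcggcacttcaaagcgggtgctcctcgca
Olig2: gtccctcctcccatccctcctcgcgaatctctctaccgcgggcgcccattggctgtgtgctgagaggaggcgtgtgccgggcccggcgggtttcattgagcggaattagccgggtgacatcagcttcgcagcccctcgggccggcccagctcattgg
E-boxes are the sites of bHLH factors such as Olig2, and GC boxes those of Sp factors. The Gsx1 stretch held 2 E-boxes and no GC box, and the Gsx2 stretch 1 of each, the GC box 13 bases before the start. The Sp9 stretch held 1 GC box, read on the other strand as CCGCCC, and the printed Sp8 stretch neither motif. That stretch is from 1 of 3 Sp8 windows. The Sp8 window starting at 118846983 held 1 E-box and 1 GC box, and that starting at 118847309 held 1 E-box. Both GC boxes of the Olig2 window lie after the printed part. Over the full windows the GC box occurred in 5 of the 7 genes (7 of 12 windows) and in 35.6% of all 32817 windows of the table. The Zeb2 windows starting at 45113204 and 45113230 overlap over most of their length and each held 1 GC box, so the 12 windows are not separate. A gene with several windows also has more chances of a match than a single window has. The E-box occurred in 4 of 7 genes (5 of 12 windows) and in 72.3% of all windows. The homeobox core TAATTA was in 1 window, of Sp8, and in 5.30% of all. CACCTG, the E-box form that Zeb factors bind and that CANNTG also counts, and GACCACCCA, the Gli site, were in none of the 12 windows, and in 20.2% and 0.253% of all. These are matches of letters and were not compared with any binding data.

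Base composition of the start windows varied among the genes. The Olig2, Sp9 and Gsx2 windows held 65%, 63.7% and 63% G or C, and the median over all windows was 52.7%. The Vax1 window held 47.7%, and the 3 Sp8 windows ranged from 43% to 61%. Of the 12 windows 11 had more CpG dinucleotides than the median window, which had 7, and the overlapping Zeb2 windows, with 8 each, are both counted. The exception was the Sp8 window printed above, with 2, whereas another Sp8 window had 32. The 3 genes with the largest log2 ratios thus had the 3 windows richest in G and C, in a set of 7 genes that is too small to read a relation from.

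Gsx2, a homeobox factor that sets the identity of progenitors in the lateral ganglionic eminence, showed the largest fold of the 8. In whole body it stood at 0.431 FPKM, about 17 fragments, and in telencephalon at 18.0, about 533. The fold was 41.7, with a counting interval of 25.8 to 72.1, and the log2 ratio of 3.73 was exceeded by 49 of the measured genes. Gsx1, its paralog, is known from the more ventral eminence progenitors and from spinal cord and hypothalamus. Its values were 0.892 FPKM for whole body and 4.31 for telencephalon (about 38 and 141 fragments), a fold of 4.83 (3.36 to 7.11). Both genes lie on chromosome 5, Gsx2 at 75075601 to 75077893 and Gsx1 at 147188696 to 147190947, and neither shares any 50-base stretch of its transcripts with another annotated gene. Whole body therefore had 2.40% of the telencephalic level of Gsx2 but 20.7% of that of Gsx1.

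The Sp factors bind GC-rich DNA through zinc fingers, and Sp8 and Sp9 are the members used in forebrain interneurons, striatal neurons and the limb ridge. Sp9, on chromosome 2 from 73271925 to 73284706, had 0.723 FPKM for whole body against 22.0 for telencephalon (about 89 and 2090 fragments). Its fold was 30.4 (24.6 to 38). It lies 1725 kb from Dlx2 on the same chromosome. Sp8, on chromosome 12 from 118846329 to 118852576, stood at 0.958 and 7.36 FPKM (about 117 and 694 fragments), a fold of 7.68 (6.30 to 9.42). The annotated span of Sp9 overlaps the opposite-strand gene Cir1 by 1602 bases, and the library kit does not mark strand. That overlap involves the Sp9-202 isoform, which was listed at 0 in both libraries, while Sp9-201 held all of the gene's FPKM. Cir1 itself had 3.15 FPKM in the whole-body library against 2.65 in the other.

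Olig2 and Olig1 are bHLH factors, Olig2 best known for motor neuron and oligodendrocyte progenitors and Olig1 for oligodendrocyte maturation. The genes are neighbours on chromosome 16, Olig2 at 91225457 to 91228677 and Olig1 at 91269772 to 91271933, with 41094 bases between them. The level of Olig2 was 0.934 FPKM for whole body against 22.6 for telencephalon (about 61 and 1128 fragments), a fold of 24.2 (18.5 to 31.6). Before rounding the fragments were 60.5 and 1127.75, away from whole numbers, so the length the authors used for Olig2 may differ and its fragments and intervals are approximate. Olig1 stood at 2.02 and 4.93 FPKM (about 109 and 205 fragments), a fold of 2.44 (1.93 to 3.11). The counting intervals of the folds of these adjacent genes lay far apart, and whole body had 4.14% of the telencephalic level of Olig2 but 40.9% of that of Olig1. The Olig1 log2 ratio of 0.97 was exceeded by 9.63% of measured genes, close to the share that passed 2-fold. With both libraries scaled to a common upper quartile, or in TPM, Olig1 passed 2-fold as well. The non-coding gene Gm15966, which overlaps the end of Olig1 on the other strand, was listed at 0 in both libraries.

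In each of these 3 pairs the member with the higher level differed between the libraries. Gsx2 was 4.17 times Gsx1 in telencephalon (3.46 to 5.06) and 0.483 times Gsx1 in whole body (0.256 to 0.877). Sp9 was 2.99 times Sp8 in telencephalon (2.74 to 3.26) and 0.755 times Sp8 in whole body (0.566 to 1.002), an interval whose upper end reaches equality. Olig2 was 4.58 times Olig1 in telencephalon (3.94 to 5.34) and 0.463 times Olig1 in whole body (0.335 to 0.644). The ratios within a library do not depend on its depth or on any scaling of the library as a whole. No replicate library was available to set against them. In bulk RNA a smaller number of expressing cells and less RNA per cell cannot be told apart, so the whole-body values do not say how many cells carried each gene.

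**Figure D3:**
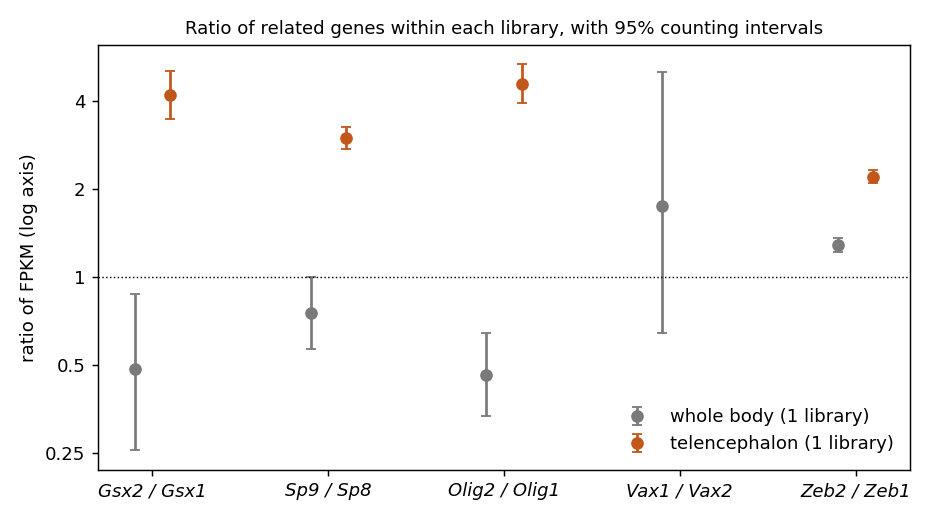
Ratio of FPKM of related genes within whole body (grey) and within telencephalon (orange) on a log axis, 1 library each, with 95% counting intervals and a dotted line at equality. The Gsx, Sp and Olig ratios lie below the line in whole body and between 2.99 and 4.58 in telencephalon; Vax1 over Vax2 has no telencephalon point because Vax2 was listed at 0 there.

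Vax1, a homeobox factor of the optic stalk, preoptic area and septum, had 0.519 FPKM from about 11 whole-body fragments and 7.38 from about 119 telencephalic ones. The fold was 14.2, with a counting interval of 7.67 to 29.3. The gene lies on the minus strand of chromosome 19 at 59166187 to 59170056. Its paralog Vax2, known from the ventral retina, stood at 0.296 FPKM in whole body, about 8 fragments, and was listed at 0 in telencephalon. Of the 9 genes listed for eye and hypothalamus only 4 were measured, 2 of them lower in telencephalon and none higher (median log2 ratio -0.42). Over all measured genes 21.2% were lower and 9.39% higher, and 4 genes are too few to set against these shares. Rax, a gene of the eye field, was listed at 0 in telencephalon. The hypothalamic genes Otp (16.6 against 13.5 FPKM) and Pomc (1.24 against 0.447) lay within 2-fold on the log2 scale of FPKM + 1.

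Zeb2, a zinc finger repressor that directs cells leaving the medial eminence towards cortical interneurons, was the most abundant of the 8 genes and the one with the smallest fold. Its level was 28.6 FPKM for whole body against 66.5 for telencephalon, 2.32-fold. The counting interval of 2.21 to 2.44 lies inside that of Olig1. It takes the division of fragments among isoforms as given. The folds on other isoform sums and on fragments, given below, fall outside it. The log2 ratio of 1.19 was exceeded by 7.31% of measured genes. Whole body had 43.1% of the telencephalic level. The gene covers 133764 bases on the minus strand of chromosome 2, from 44983632 to 45117395. It had 14 isoform rows, of which 12 reached 0.01 FPKM in either library, whereas 6 of the other 7 genes drew all their FPKM from 1 isoform in both libraries. The exception was Gsx2, where Gsx2-202 held 5.37% of the FPKM in telencephalon.

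The fold of Zeb2 depended on its shortest isoforms. Zeb2-208, a processed transcript of 618 bases, had 1.01 FPKM against 15.3 in telencephalon, which was 3.53% and 23.0% of the gene. Zeb2-207, a partial coding model of 577 bases, stood at 8.11 and 15.8 FPKM, or 28.3% and 23.7%. The isoforms under 1000 bases held 31.8% of the Zeb2 FPKM in whole body and 46.7% in telencephalon, but only about 2.72% and 5.22% of its fragments, since FPKM divides by a short length. Restricted to isoforms of 1000 bases or longer, Zeb2 stood at 19.5 and 35.4 FPKM, 1.82-fold, and its log2 ratio of 0.83 fell short of 2-fold. The 8 coding isoforms gave 27.0 and 50.6 FPKM, 1.87-fold, and the gene's fragments scaled by depth gave 1.78-fold. The direction was the same in each case. Among the long coding isoforms, Zeb2-214 (4020 bases) stood at 7.85 against 16.4 FPKM and Zeb2-203 (3913 bases) at 6.23 against 10.1. The 9124-base Zeb2-212 was nearly level at 2.23 and 2.28. Zeb2-202 (5624 bases) had the largest ratio, at 0.0033 against 0.839 FPKM, about 1 and 101 fragments. Zeb2-213 (1762 bases) went the other way, at 0.108 against 0, from about 5 whole-body fragments.

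**Figure D4:**
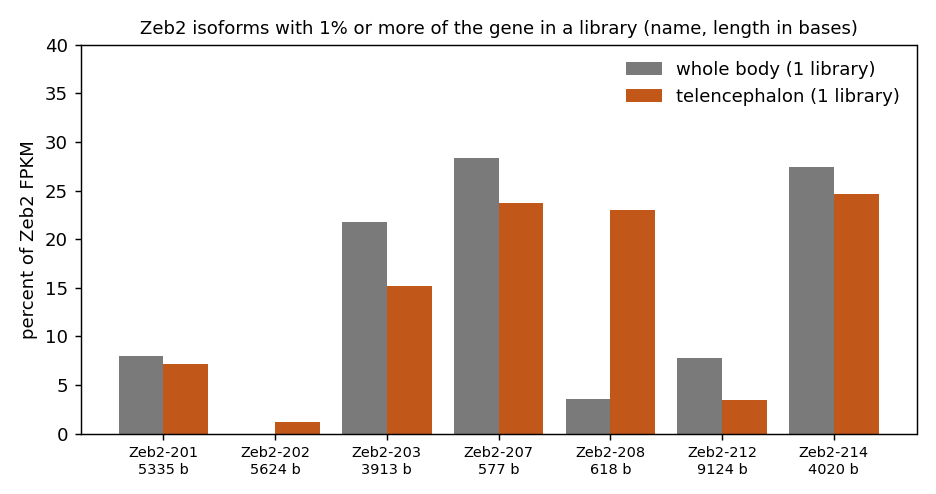
Share of the Zeb2 FPKM (percent) held by each isoform with 1% or more in a library, in whole body (grey) and telencephalon (orange), 1 library each, with the isoform's length in bases. Zeb2-208 differs most in percentage points among those drawn, 3.53% against 23.0%, and rests on about 9 and 98 fragments.

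Zeb2os, a non-coding gene on the opposite strand at the start of Zeb2 (chromosome 2, 45110707 to 45114087), had 2.43 FPKM against 2.95 in telencephalon. Its exons share 220 bases with Zeb2-207 and 57 with Zeb2-208. Long coding isoforms share bases too, 352 for Zeb2-202, 171 for Zeb2-212, 163 for Zeb2-213 and 68 for Zeb2-203, but 0 for Zeb2-201 and Zeb2-214. Without strand the reads of such shared bases cannot be assigned to either gene. The paralog Zeb1 differed less than Zeb2, at 22.2 and 30.2 FPKM. Zeb2 was 1.29 times Zeb1 in whole body (1.22 to 1.36) and 2.20 times in telencephalon (2.09 to 2.32). With isoforms of 1000 bases or longer the whole-body order was the other way round (log2 of the ratio -0.13), while the telencephalon ratio stayed above equality (0.34). With protein-coding isoforms Zeb2 exceeded Zeb1 by 1.22 on the log2 scale in whole body and by 1.34 in telencephalon, so that the libraries lay close together. The size of the Zeb2 to Zeb1 ratio and its difference between the libraries thus depend on which isoforms are summed.

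Other members of the same gene families were mixed in direction. Over all measured genes 9.39% were higher and 21.2% lower, and so few relatives do not show a departure from those shares. Of 12 listed relatives 9 were measured, 2 of them at least 2-fold higher in telencephalon and 1 lower, with a median log2 ratio of 0.30 beside 2.28 for the 8 genes. Bhlhe22, an Olig-related bHLH gene of cortical and spinal neurons, stood at 5.46 against 1.36 FPKM and Sp4 at 14.4 against 6.48, log2 ratios of 1.45 and 1.04 that exceed that of Olig1. The lower one was Sp7, the bone factor also called osterix, at 0.547 against 3.58 FPKM. The broadly expressed Sp1, Sp2 and Sp3 stood at 15.9, 16.2 and 39.8 FPKM in telencephalon and at 28.8, 15.3 and 32.1 in whole body. Olig3, known from dorsal spinal cord and hindbrain, stood at 0.796 against 2.05 FPKM, Sp5 at 4.36 against 2.26, and Sp6 was listed at 0 in both libraries.

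The genes known to work with these factors in the ganglionic eminences were all higher in telencephalon. Of 15 regulators and GABA genes 15 were at least 2-fold higher (median log2 ratio 3.60), from Gbx1 (4.51 against 0.929 FPKM) to Dlx2 (212 against 5.40). Whole body had 2.54% of the telencephalic level of Dlx2. Gsx2 (2.40%), Sp9 (3.29%) and Olig2 (4.14%) had shares of that size, whereas Gsx1, Olig1 and Zeb2 had 20.7% to 43.1%. The dorsal genes, among them the Gsx2 opponent Pax6 (64.0 against 10.4 FPKM), were higher in 10 of 12 cases and lower in none (median 2.17), with Tbr1 (37.5-fold) and Eomes (13.3-fold) at the top and Gli3 level (36.3 against 38.5 FPKM).

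Genes of the later lineages were divided, beside 9.39% of all measured genes higher and 21.2% lower. The counts of lower genes in these small lists do not show a departure from 21.2%. Of 16 genes of striatal and olfactory lineages 5 were higher and 3 lower (median -0.06). Six3 (17.8 against 1.39 FPKM) and Bcl11b (114 against 14.9) were highest in ratio, and the opioid precursor gene Penk, which many body tissues express, was lowest (1.77 against 94.0). Of 15 measured interneuron genes 7 were higher and 1 lower (median 0.73). The neuropeptide gene Sst stood at 264 against 27.7 FPKM and Nr2f1 at 446 against 82.9, while Maf was lower (2.77 against 8.01). Of 8 measured oligodendrocyte-lineage genes none was higher and 3 were lower (median -0.83), beside the 24.2-fold difference of Olig2. Pdgfra, a receptor of oligodendrocyte precursors and of mesenchyme, stood at 1.14 against 55.5 FPKM, and Mbp and Zfp488 at 7.86 and 1.25 against 6.62 and 1.26. The other lower genes were Sox10 (0.813 against 10.1 FPKM) and Cspg4 (1.21 against 10.1). Whether other body tissues contribute to the whole-body values of these genes was not tested.

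Genes of the hedgehog and FGF pathways, which pattern the ventral forebrain, were mixed in direction, with more lower than higher. The list holds ligands, receptors and other pathway genes, so its count is not one of signals alone. Of 16 measured hedgehog and FGF genes 1 was higher and 9 were lower in telencephalon (median -1.10), beside 9.39% and 21.2% of all measured genes. With isoforms of 300 bases or longer 8 were lower. Fgfr3 was the higher one (45.5 against 21.9 FPKM), and Gas1, which binds hedgehog ligands, was lowest in ratio (15.4 against 97.1). Shh, the ventral signal itself, stood at 2.61 against 1.02 FPKM, a 2.56-fold difference like that of Olig1 and Zeb2, and Fgf15 at 10.6 against 5.13. Both fell short of 2-fold on the log2 scale of FPKM + 1, and 3 genes were higher with a pseudocount of 0.1 FPKM or in TPM.

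Genes of the other places where the 8 factors are known were mostly lower in telencephalon. Over all measured genes 21.2% were lower and 9.39% higher. Of 12 measured spinal cord and hindbrain genes 10 were lower and none higher (median -1.96), with Lmx1b at 0.00986 against 8.14 FPKM, the former from about 1 fragment, and Gbx2 and Dbx1 within 2-fold. Of 7 genes of limb ectoderm and ridge 5 were lower and 1 higher (median -1.57). Trp63, of surface ectoderm, stood at 0.226 against 5.12 FPKM and Fgf9 at 1.25 against 2.98, whereas Wnt7a, which the forebrain also expresses, stood at 28.9 against 2.02. Of 11 mesenchyme and crest genes 9 were lower (median -3.70), Twist2 the most (0.133 against 32.8 FPKM, about 3 fragments in telencephalon), and Cdh2, the neural cadherin, was higher (110.0 against 44.7), with Vim level. Of 10 measured epithelial genes that Zeb factors are known to repress, 9 were lower in telencephalon and none higher (median -2.20), from Cdh1 (0.282 against 8.77 FPKM) to Ovol2 (0.661 against 2.001), the 1 within 2-fold. Apart from that for mesenchyme and crest, these counts rest largely on genes of low level. With a pseudocount of 5 FPKM the number lower was 2 for spinal cord and hindbrain, 0 for limb, 7 for mesenchyme and crest and 4 for epithelium, and with genes of 5 FPKM or more it was 2, 1, 7 and 4. Whole body includes epithelia, so repression and tissue content cannot be told apart here.

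**Figure D5:**
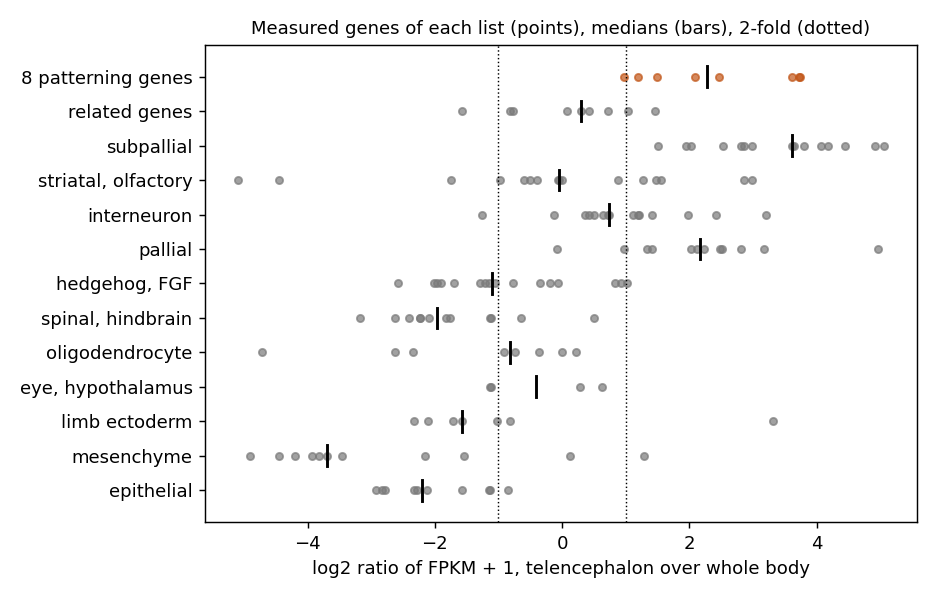
Log2 ratio of FPKM + 1, telencephalon over whole body, for each measured gene of the lists (points), with list medians (black bars) and dotted lines at 2-fold. The 8 patterning genes and the subpallial and pallial lists lie mostly to the right, with medians of 2.28, 3.60 and 2.17, and the mesenchyme list lies farthest to the left at -3.70.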

How the data were processed

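The deposited tables hold FPKM per gene and per isoform, made by the authors with TopHat, Cufflinks and Cuffdiff on GRCm38, per the submitters' processing notes. Their versions and the annotation release are not given in the sources used here. The kit, per the labels' protocols, was TruSeq RNA v2, an unstranded kit for polyadenylated RNA. Isoform values summed to the gene value for 99.9% of genes.

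Genes were matched to GENCODE M21 (GRCm38). Depth and a length correction (322 and 336 bases) were fitted to the 1-fragment FPKM step of 690 and 761 single-isoform genes. Of 1182 and 1383 values between 1.5 and 20 fragments that were outside that step, 90.0% and 88.1% came out whole within 0.1. Intervals are exact Poisson (levels) or exact binomial (ratios), at 95%. Without molecular identifiers they describe counting error alone, with the division of fragments among isoforms taken as given. Log2 ratios used a pseudocount of 1 FPKM. The counting was tested on simulated data.

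The 8 genes and the 14 lists were chosen with earlier results of these data known. Named genes were the 8, their relatives, the 2 highest and the 1 lowest log2 ratio of each other list, the nearest gene to each of the 8 by level in both libraries, and locus neighbours. Some genes that this rule selects are not reported here. Other genes named (Pax6, Shh, Rax, Xist, Sox10, Cspg4 and the tissue markers at 0) were picked after their values were seen. Work was done in Python 3.11.15 with numpy 2.4.6, pandas 2.3.3, scipy 1.17.1 and matplotlib 3.10.9.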

Additional observations from a re-analysis of the deposited data

How the results depend on the processing

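No paired analysis was possible because each group has 1 library, and no replicate could be left out for the same reason. The count of 7 genes at least 2-fold higher became 8 with a pseudocount of 0.1 or 0.5 FPKM, with a common upper quartile, in TPM, with the median of ratios set to 1, or at 1.5-fold. It became 6 with a pseudocount of 5 FPKM, with genes of 5 FPKM or more (where Gsx1 and Olig1 drop out), or with only isoforms of 1000 bases or longer or only protein-coding isoforms, 2 alternatives chosen after seeing the data. None of the 8 genes was at least 2-fold lower under any of the 14 alternatives. All 94 log2 ratios of single genes recomputed under the 12 that change them or the genes kept were above 0. Pseudocounts, thresholds and filters cannot turn the sign of a ratio, and the isoform restrictions changed only Zeb2 among the 8. Those 94 values are therefore not separate evidence for the direction. The median log2 ratio of 2.28 moved to 3.21 with a pseudocount of 0.1, 1.13 with 5, 3.04 with genes of 5 FPKM or more, and 2.84 in TPM. Rescaling to TPM moved the median of all genes from -0.16 to -0.02, and the other scalings moved it by less than 0.1. With a pseudocount of 5 FPKM 800 genes in all were higher and 1490 lower, against 1408 and 3170, and at 1.5-fold 2545 and 4743. In TPM 2126 were higher. Among the gene lists, a pseudocount of 5 FPKM left 4 of 7 interneuron genes higher, 5 of 9 hedgehog and FGF genes lower, and no relative of the 8 genes at 2-fold in either direction, while 14 of 15 subpallial and 8 of 10 dorsal genes were higher. Vax1 and Gsx2 in whole body rest on about 11 and 17 fragments, which limits their folds.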

Other observations

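Genes next to the 8 loci lay mostly within 2-fold. Of 14 annotated neighbours in the table, small RNA genes left out, 9 were measured, and 6 of these lay within 2-fold. The others were 2 higher and 1 lower in telencephalon, where 9.39% of all measured genes were higher and 21.2% lower. So few neighbours do not show a departure from those shares. The higher ones were Shtn1 (9.83 against 2.14 FPKM), an axon growth gene 90086 bases from Vax1, and Sp4, 544888 bases from Sp8. The lower one was Pdgfra, which lies 74398 bases beyond Gsx2 and had the opposite direction (1.14 against 55.5 FPKM for Pdgfra, 18.0 against 0.431 for Gsx2). Polr1d beside Gsx1, Chic2 beside Gsx2, Ola1 and Scrn3 beside Sp9, Ifnar2 beside Olig1 and Gtdc1 beside Zeb2 were the 6 within 2-fold. Olig2 and Olig1, neighbours of each other, are not counted among the 14.

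The protein-coding gene nearest in level in both libraries was the potassium channel gene Kcnq1 (23.1 against 0.767 FPKM) for Gsx2, Sp9 and Olig2. Its distance was 0.0786 for Sp9 and 0.134 for Olig2 but 0.461 for Gsx2, a looser match. For the other members the nearest genes were as follows. It was Emx2 for Olig1, Bend6 for Gsx1, Kcng1 for Sp8, Pdk4 for Vax1 and Rpl26 for Zeb2. Likeness over 2 libraries is only nearness of 2 values, by Euclidean distance in log2(FPKM + 1). Within a distance of 0.1 there were 7 genes around Zeb2, 6 around Olig1 and none around Gsx2, Olig2 or Vax1.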
